A study of Mus musculus with 6 samples.

Results

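Interferon-stimulated genes were followed in the carotid body, a chemosensory organ beside the carotid artery whose glomus cells respond to low blood oxygen. The set is 37 gene symbols, and every probe set whose platform annotation gives 1 of these symbols alone was taken, on all 6 arrays. This found 52 of the 45101 probe sets, for 34 of the 37 genes; Gbp4, Ifi44 and Isg15 had none. The mice were untreated males, 28 days old, of 2 inbred strains, A/J and DBA/2J, and the labels name no transgene or challenge in either group. Each strain had 3 Affymetrix mouse expression arrays, and each array was hybridised with a pool: 38 to 42 carotid bodies from 19 to 21 mice in A/J, and 36 to 38 from 18 or 19 mice in DBA/2J. A difference therefore compares pools of whole tissue, in which fewer cells of a type and less RNA per cell cannot be told apart. Whether the probes match the sequence of both strains equally was not tested, so a rise or fall below is one of signal.

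Interferons are secreted proteins, and those of type I are released when cells sense viral nucleic acid. Type I interferons act through Ifnar1 and Ifnar2 and lead to a complex with Stat2 and Irf9 that binds the interferon-stimulated response element (ISRE). Interferon-gamma acts through Ifngr1 and Ifngr2, and many of its targets carry the gamma-activated site (GAS). The genes that follow encode nucleic acid sensors, enzymes that degrade RNA or stop translation, membrane proteins that block entry or release of virus, and GTPases that attack the vacuoles of intracellular pathogens. A low level of many of them is kept without infection.

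RefSeq promoter windows (GRCm38.p6, 250 bases before to 50 after a gene's start) were held for 28 of the 37 genes. The ISRE core, a pair of GAAA blocks with 2 bases of any kind between them, read on both strands, was in a window of 17 of the 28 genes (60.7%), against 3.99% of all 27025 genes with windows. The GAS core TTCNNNGAA was in 8 of them (28.6%), against 9.55% of all genes, and 5 members held both. Since the members were chosen as interferon-stimulated genes, these shares describe the set. Below are 60-base stretches that lie wholly before the start of 5 genes whose values are described further down, each written 5′ to 3′ on the gene's own strand with the ISRE matches in capitals. They were chosen because they hold an ISRE match, so their likeness follows from that choice.
Ifit1, chr19:34640769-34640828 (+): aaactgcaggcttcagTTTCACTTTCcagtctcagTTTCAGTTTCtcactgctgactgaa
Bst2, chr8:71537565-71537624 (-): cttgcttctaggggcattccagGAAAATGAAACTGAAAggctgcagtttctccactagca
Stat2, chr10:128270251-128270310 (+): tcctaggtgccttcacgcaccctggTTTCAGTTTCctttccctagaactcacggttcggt
Igtp, chr11:58199496-58199555 (+): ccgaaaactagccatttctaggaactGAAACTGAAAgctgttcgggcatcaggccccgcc
Ifitm2, chr7:140955973-140956032 (-): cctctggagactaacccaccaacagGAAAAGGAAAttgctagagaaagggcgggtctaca
The Ifit1 and Stat2 matches are on the opposite strand, so their blocks read TTTC here. In Bst2 a pair of ISRE matches overlap each other, and a GAS match overlaps the first of them. In Igtp a GAS match lies just before the ISRE match. Of the genes described below, the windows of Xaf1, Irf7, Irf9, Ifitm1, Oasl1, Oasl2 and Sp100 held neither core. Those of Ifi35, Irf1 and Ifit2 held a GAS match without an ISRE match.

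Values of the interferon-stimulated genes lay on both sides of 0 between the strains, and no gene was called. Of the 34 genes with a probe set, Zbp1, Mx1 and Mx2 were too dim to be kept for the test, and of the 31 kept genes 0 passed it (8 had an unadjusted p under 0.05). The test was limma on log2(signal + 16), DBA/2J minus A/J, with Benjamini-Hochberg adjustment over all 27022 kept probe sets and a threshold of 0.05. It called 3.77% of the 13006 kept genes. The median log2 difference was 0.01 over the members and 0.03 over all kept genes, with 16 members above 0 and 15 below. Of the 8 members at an unadjusted p under 0.05, 3 were higher and 5 lower in DBA/2J; of all kept genes 17.1% reached that p, 9.3% higher and 7.83% lower. The arrays of the strains did not overlap for 9 members, 3 higher and 6 lower; of all kept genes 22.7% did not overlap, 13% higher and 9.69% lower. The rule that the series states (6 of 9 array pairs changed 1.5-fold, and a p under 0.05, here the unadjusted limma p) took 5 members, Iigp1 higher and Ifi27, Ifit1, Bst2 and Xaf1 lower, against 10.7% of all kept genes. Counted by probe set, 1 of 46 kept member probe sets passed the adjusted test, where 3.27% of all did (1.86% higher in DBA/2J), and it was a probe set of Xaf1 that read higher. Arrays did not overlap at 14 of the 46, against 21.1% of all kept probe sets.

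**Figure D1:**
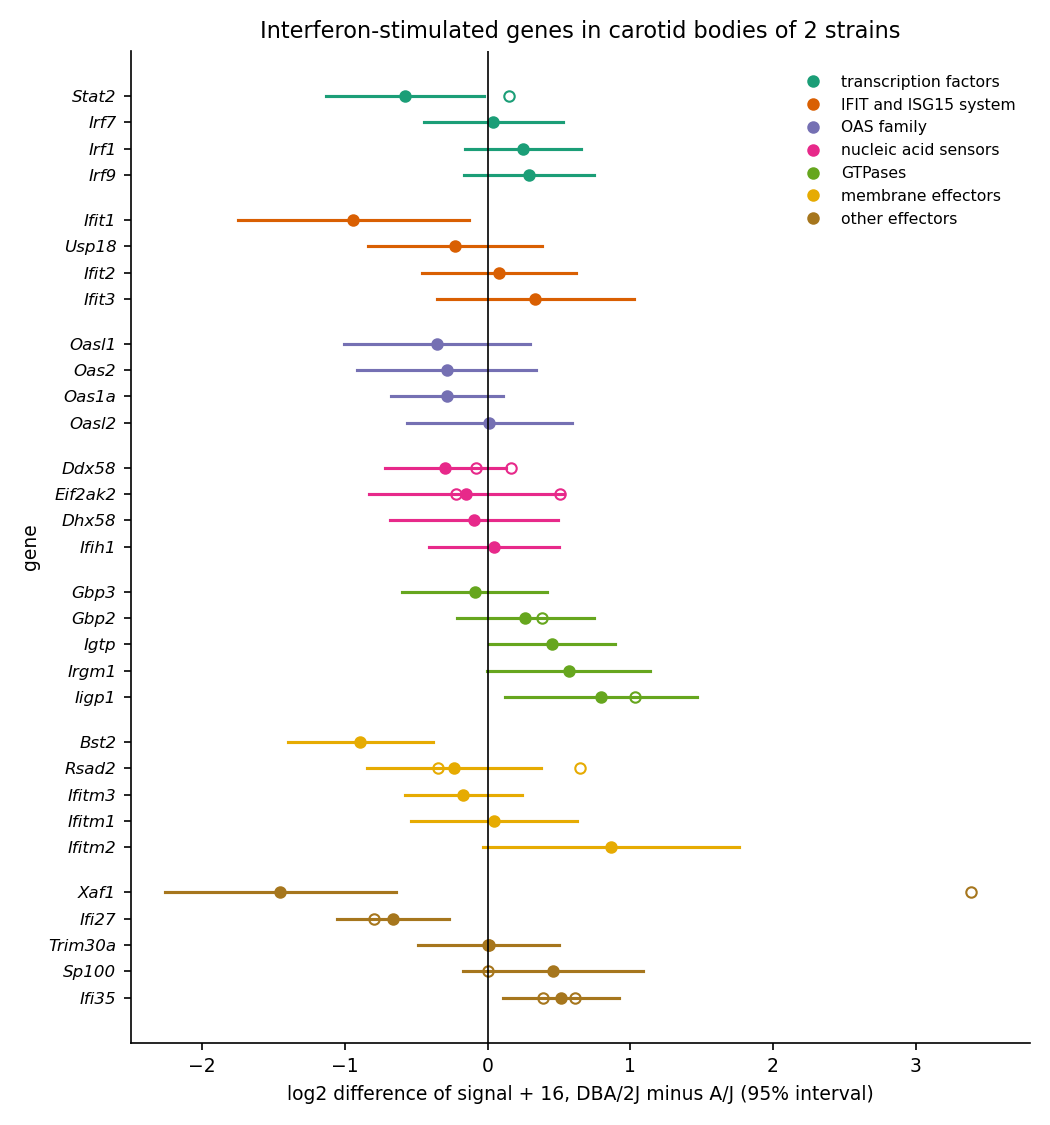
Log2 difference of signal + 16, DBA/2J minus A/J, for the 31 kept member genes grouped by role; filled points are the probe set that stands for the gene (highest mean) with its 95% interval, and open points are other kept probe sets of that gene. The filled points lie on both sides of 0, from -1.45 for Xaf1 to 0.86 for Ifitm2, and the open point of Xaf1 lies apart at 3.39.

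Tissue values that touch these results are as follows. The summed signal of 11 glomus cell markers ran between 26499.9 and 31983.2 among A/J pools and between 54121.4 and 58607.8 among DBA/2J pools, and 6 of the 11 rose in DBA/2J. Among them Th, tyrosine hydroxylase, did not pass (adjusted p = 0.131) and had signals of 2760.1, 3815.4 and 5427.9 in A/J pools and of 5535.4, 7709.7 and 8415.8 in DBA/2J pools. The summed signal of 12 skeletal muscle markers ran between 48868.6 and 116575.1 among A/J pools and between 937.3 and 2297.9 among DBA/2J pools; that of 7 adipocyte markers ran between 48182.6 and 69388.7, and between 24927.4 and 40880. The 12 endothelial markers summed to between 10466.7 and 11896.5 for A/J and to between 12473.3 and 16953.1 for DBA/2J, with none passing. The 14 macrophage markers summed to between 37773.9 and 40169.7 for A/J, and for DBA/2J to 30574.9, 38539.2 and 25756.6; none of the 13 kept passed. The 7 natural killer cell markers with a probe set summed to between 525.8 and 732.9 for A/J, and for DBA/2J to 856.7, 1210.1 and 605.3, with none of 3 kept passing. Of the 7 plasmacytoid dendritic cell markers, a list that holds Bst2 too, Cox6a2, also a muscle gene, fell in DBA/2J. It read 2910.3, 1254.4 and 2664.5 in A/J and 198.3, 311.8 and 171.1 in DBA/2J. The sum, which includes that fall, ran between 6741.9 and 7658.9 for A/J and between 4951.7 and 6635.2 for DBA/2J. Tcf4, the brightest of the list, had a log2 difference of 0.43 with overlapping arrays, so the sum gives no direction for these cells. The Gapdh ratio of 3′ to 5′ probe sets, a sign of RNA quality, was 1.74, 4.87 and 1.81 on the A/J arrays, and 2.5, 3.28 and 1.73 on the DBA/2J arrays. The 11 lymphocyte markers summed to between 1304.2 and 2328.7 over all arrays; 4 were kept, none of which passed. Of the T cell genes among them Cd8a was kept, at 314.3 to 427.4, while Cd2, Cd3d, Cd3e, Cd3g and Cd4 were too dim. The part of these cells, and of RNA quality, in the values below was not tested. Pearson correlations of log2 values over probe sets, which are not independent replicates, were 0.939 to 0.964 within a strain and 0.925 to 0.946 between strains.

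Xaf1, which encodes an interferon-induced antagonist of the apoptosis inhibitor XIAP, had probe sets that gave opposite results. Probe set 1443621_at read 163.4, 191 and 151.6 on the A/J arrays and 1846.7, 2073.9 and 1814.8 on the DBA/2J arrays. Probe set 1443698_at read 1934.9, 1958.5 and 1362.2 in A/J and 794.5, 910.3 and 328 in DBA/2J. The first was thus far higher, and the other lower, on every DBA/2J array than on any A/J array. The first rose by a log2 difference of 3.39 (SE 0.19, limma adjusted p = 9.02e-05). The other, which is the brighter on average and stands for the gene, had -1.45 (SE 0.36, adjusted p = 0.069). The distance between them, 4.84 on the log2 scale, was the third largest among 5671 genes with several kept probe sets, where the median distance was 0.35. A gene with a probe set wholly higher and another wholly lower in DBA/2J made up 1.8% of those genes. The rise held (adjusted p under the threshold) in 15 of 16 alternatives, at log2 differences from 3.09 to 3.50 over all 16, and without each array in turn. The lower value of 1443698_at passed without DBA/2J array 2 (-1.72, adjusted p = 0.0238). Where in the transcript these probe sets lie was not analysed here, so these values give no single direction for Xaf1.

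**Figure D2:**
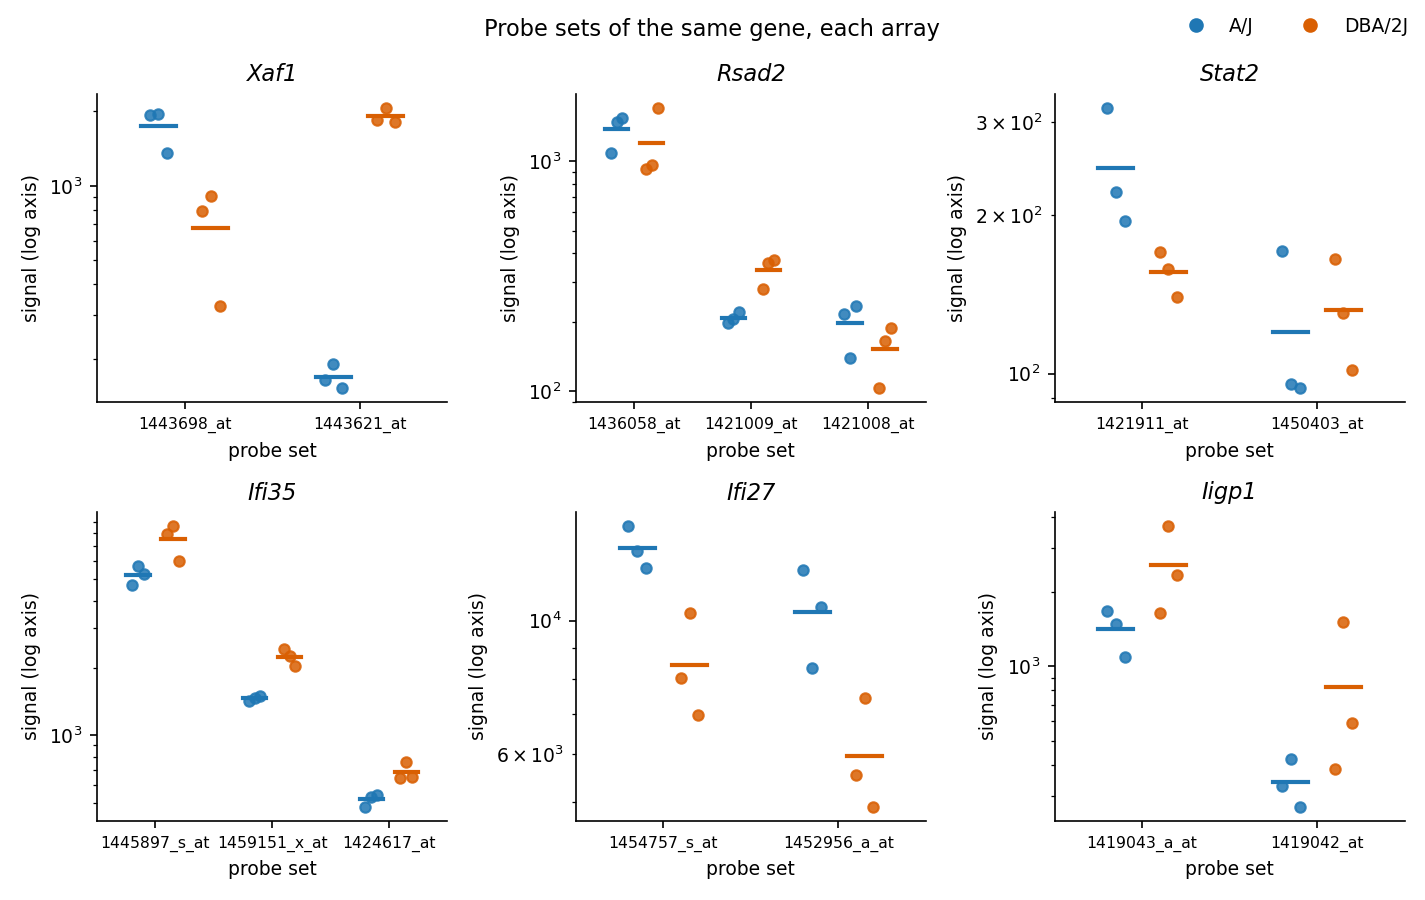
Signal (log axis) of each kept probe set of Xaf1, Rsad2, Stat2, Ifi35, Ifi27 and Iigp1 on each array; points are arrays in the order 1, 2, 3, bars are means of 3, and blue is A/J and orange DBA/2J. The probe sets of Xaf1 point in opposite directions, those of Rsad2 and Stat2 differ in sign, and those of Ifi35, Ifi27 and Iigp1 share a direction.

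**Figure D3:**
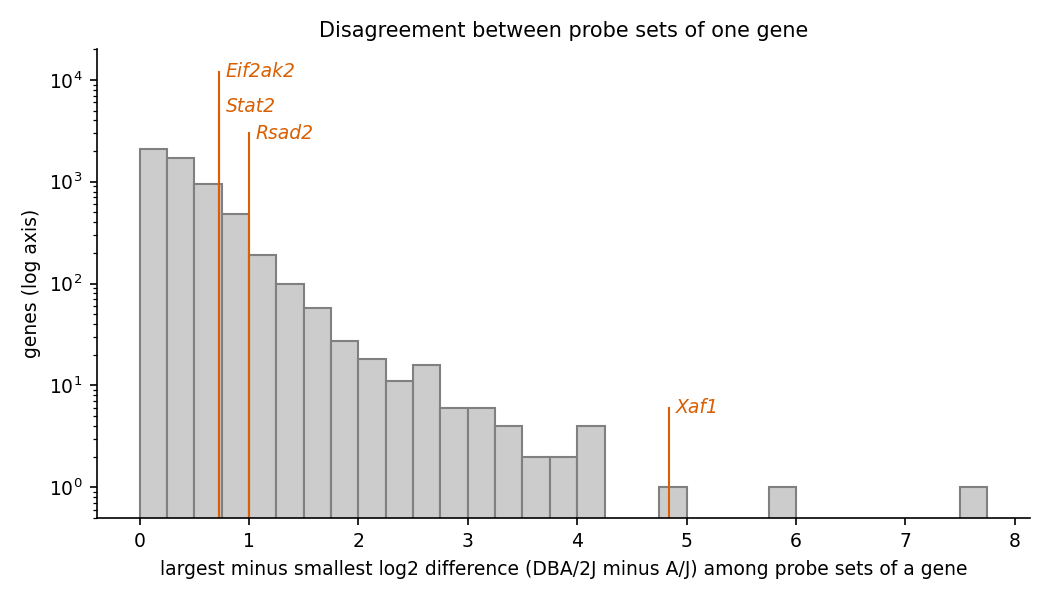
Number of genes (log axis) by the distance between the largest and smallest log2 difference, DBA/2J minus A/J, among the kept probe sets of a gene, for 5671 genes with at least 2; lines mark the members with the widest distance. Xaf1 at 4.84 lies in the sparse tail, while Rsad2, Eif2ak2 and Stat2 lie between 0.73 and 1.00.

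The transcription factors of the pathway showed no called difference. Stat2, the type I interferon signal transducer, read 319.5, 220.9 and 194.3 in A/J and 169.8, 157.7 and 139.7 in DBA/2J. All DBA/2J arrays were below the A/J arrays, with a log2 difference of -0.58 (SE 0.25) and a limma adjusted p of 0.30, and a dimmer probe set of Stat2 gave 0.15. Irf9, its DNA-binding partner, read 705.2, 586 and 728.1 in A/J and 731.5, 989.8 and 773 in DBA/2J. These groups do not overlap, but the gap is narrow (731.5 against 728.1) and the log2 difference was 0.29 (SE 0.20, adjusted p = 0.579). Irf1, a factor of the interferon-gamma response, and Irf7, which drives the interferon genes themselves, had log2 differences of 0.25 and 0.04, with 95% intervals from -0.16 to 0.66 and from -0.45 to 0.53.

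Among the IFIT proteins, which bind foreign RNA, and Usp18, which strips ISG15 from proteins and damps the type I receptor, no gene passed. Ifit1 read 854.3, 1153.5 and 861.9 in A/J and 304.7, 904.8 and 412 in DBA/2J. DBA/2J array 2 lay among the A/J arrays, and the other DBA/2J arrays were well below every A/J array. The log2 difference was -0.94 (SE 0.36, limma adjusted p = 0.243), and without DBA/2J array 2 it was -1.38 (adjusted p = 0.0125). Ifit2 and Ifit3 had 0.08 and 0.34, and Usp18 -0.23, all with overlapping arrays. The genes of this family thus did not share a sign.

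The OAS enzymes make oligoadenylates that switch on RNase L. Oas1a read 876.1, 881.3 and 846.9 in A/J and 703.8, 743.8 and 684 in DBA/2J, a narrow but complete separation. Its log2 difference was -0.28 (SE 0.17, limma adjusted p = 0.51). Oas2, Oasl1 and Oasl2 had -0.29, -0.35 and 0.01, and their arrays overlapped.

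The sensors of double-stranded RNA and DNA did not pass the test either. Ddx58, the RNA helicase RIG-I, read 1269.4, 1237.6 and 1617.4 in A/J and 1200.1, 1040 and 1093.1 in DBA/2J, and its groups did not overlap. Its log2 difference was -0.30 (SE 0.19, limma adjusted p = 0.536), while its dimmer probe sets gave 0.17 and -0.08. The helicase Ifih1, its relative Dhx58 and the kinase Eif2ak2, which stops translation, had 0.05, -0.10 and -0.15. Zbp1, a sensor of Z-form nucleic acid, was too dim to keep: its brighter probe set read 98 to 105.1 in A/J and 76.1, 261.3 and 61.5 in DBA/2J.

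Of the 5 kept interferon-inducible GTPases none passed; 4 had a log2 difference above 0 and the median was 0.45, beside 0.03 over all kept genes, with no test of the group. Iigp1, which loads onto the vacuole of Toxoplasma, read 1667.3, 1485.7 and 1087.2 in A/J and 1644.1, 3688.3 and 2346.7 in DBA/2J at its brighter probe set. At the dimmer one it read 327.6, 421.5 and 270.7 against 385.4, 1512.3 and 589. At both, DBA/2J array 2 was the highest of all arrays and DBA/2J array 1 lay within the A/J range. The log2 differences were 0.79 (SE 0.30, limma adjusted p = 0.235) and 1.04 (SE 0.43, adjusted p = 0.291), and 0.49 at each without DBA/2J array 2. Igtp, another immunity-related GTPase, read 1784.8, 1667.6 and 1795.9 in A/J and 1903.3, 2847.9 and 2531.3 in DBA/2J, higher on every DBA/2J array. Its log2 difference was 0.45 (SE 0.20, adjusted p = 0.313). Irgm1, a regulator of these GTPases, had 0.57 (adjusted p = 0.331), and the guanylate-binding proteins Gbp2 and Gbp3 had 0.26 and -0.09. Mx1 and Mx2, antiviral GTPases, were too dim to keep, with signals of 50.4 to 141.2 for Mx1 and 19.7 to 31.5 for Mx2 over all arrays, and with no filter had log2 differences of -0.46 and -0.079.

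All 5 kept GTPases were highest, among the DBA/2J pools, on DBA/2J array 2. So were 21 of the 31 kept member genes, where 45.3% of all kept genes were. The median deviation of the GTPases from their mean over 6 arrays was 0.47 on that array, 0.19 on DBA/2J array 3 and between -0.20 and -0.04 on the other arrays. Outside the members, the chemokine Cxcl9, a target of interferon-gamma that was too dim to keep, read 774.5 on that array and 23.1 to 148.2 on the others at its brighter probe set. The natural killer cell granzyme Gzma read 421.7 there and 48.6 to 145.1 elsewhere. Cxcl9 and Gzma were picked after their values were seen. Of the other natural killer cell markers, Nkg7, Gzmb and Eomes were also highest there. Klrk1 was the lowest there, at 93.8 against 114.5 to 246.7 elsewhere, and Prf1 and Ncr1 lay within the range of the other arrays. Among kept GTPases outside the members, Ifi47 was highest there, while Gbp6, Gbp7 and Irgm2 were not, at the probe set that stands for each. Ifng itself read 70.4 on that array and 8.5 to 73 elsewhere, too dim to keep. The 5 membrane effectors had a median deviation of -0.38 there. Ifitm2, Ifitm3 and Bst2 were at or near the lowest of the DBA/2J arrays, Rsad2 lay between the other DBA/2J arrays, and Ifitm1 was the highest of all arrays at 1184.7. The Gapdh ratio of 3′ to 5′ probe sets was 3.28 on DBA/2J array 2, against 2.5 and 1.73 on the other DBA/2J arrays. It was highest on A/J array 2, at 4.87. The part of RNA quality in these values was not tested.

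**Figure D4:**
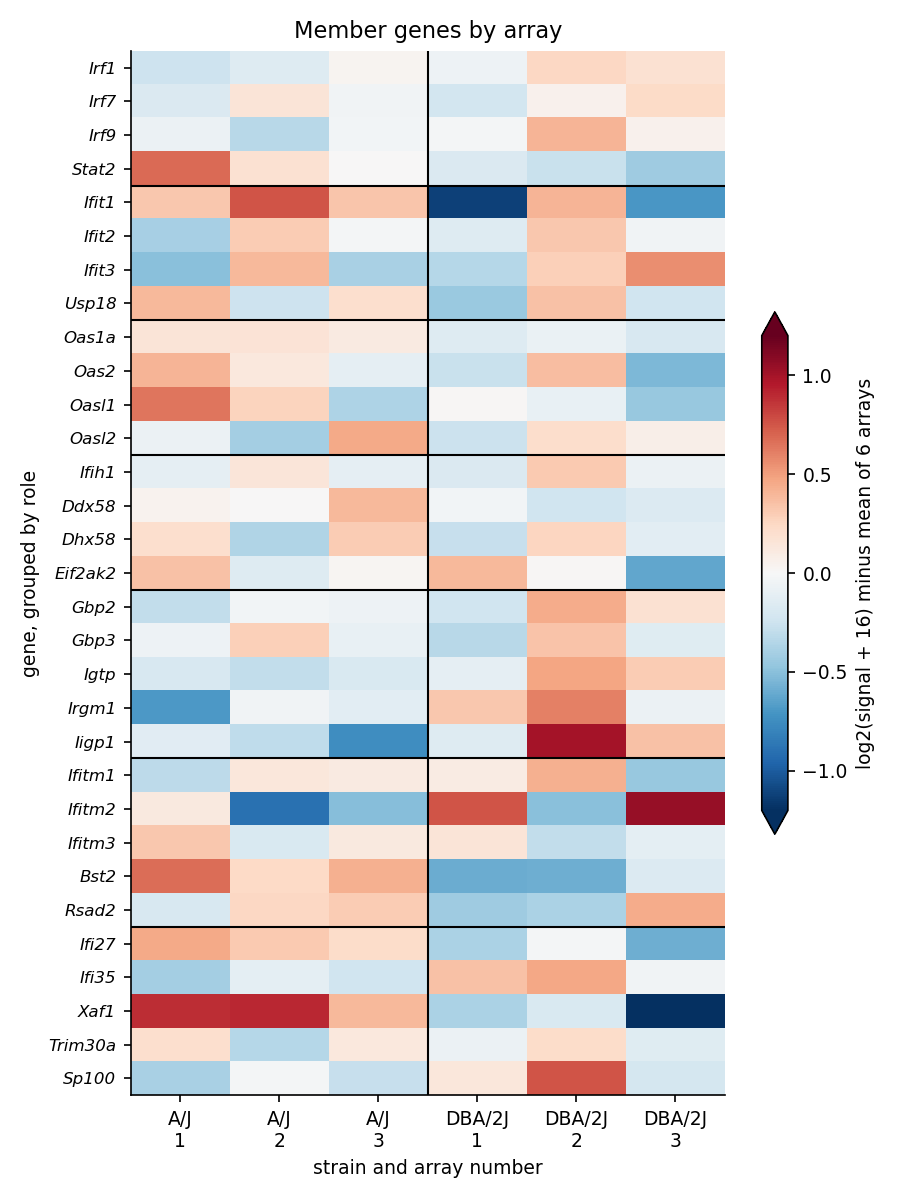
Heat map of log2(signal + 16) minus the mean of 6 arrays for the 31 kept member genes (rows, grouped by role with lines between groups) on the 6 arrays (columns); red is above and blue below the gene's own mean, and colours saturate at 1.2. DBA/2J array 2 is red for most members and for all 5 GTPases (median deviation 0.47), while Ifitm2 and Bst2 are blue there.

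Among membrane proteins, Bst2 and Ifitm2 stood farthest from 0, in opposite directions. Bst2, the tetherin that holds budding virus at the cell surface, read 452.5, 329.8 and 379.5 in A/J and 177.9, 180.2 and 246.7 in DBA/2J. Each DBA/2J array was below each A/J array, with means of 387 ± 61.7 and 202 ± 39.1 (SD, n = 3 arrays). The log2 difference of -0.89 (SE 0.22) had a limma adjusted p of 0.0742, just short of the threshold. With the probe sets of each gene averaged before the fit, where fewer features are tested, Bst2 fell past the threshold (adjusted p = 0.046). Of the 16 alternatives that kept probe sets apart, Bst2 kept its direction in all and passed in 1. That was the fit with array weights, where many more probe sets were called over the whole table. Bst2 is known to be high in plasmacytoid dendritic cells. Their marker Siglech read 336.8, 226.8 and 229.8 in A/J and 221.7, 188.4 and 167.9 in DBA/2J (adjusted p = 0.478). The other kept markers of these cells did not share a sign: Tcf4 and Klk1 had log2 differences of 0.43 and 0.09, and Cox6a2 -3.19. The part of these cells in the Bst2 value was not tested.

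Ifitm2, which restricts entry of enveloped virus, read 5125.6, 2531.1 and 3311.1 in A/J and 7972.4, 3335.1 and 9808.6 in DBA/2J. DBA/2J array 2 lay among the A/J arrays, and the other DBA/2J arrays were above them all. The log2 difference was 0.86 (SE 0.40, limma adjusted p = 0.35), and 1.33 without DBA/2J array 2 (adjusted p = 0.0277). Its neighbour in sequence Ifitm3 read 15211, 10673.8 and 13173.9 in A/J and 13549.9, 9914.9 and 11158.9 in DBA/2J, overlapping, with -0.17 (SE 0.18). Ifitm1 had 0.05, so the IFITM genes did not share a direction. Rsad2, the enzyme viperin, was overlapping at its brightest probe set (log2 difference -0.23), while a dimmer one read 198.6, 205.9 and 220.8 against 278.9, 360.6 and 373.3. That probe set was higher on every DBA/2J array, at 0.65 (SE 0.21, adjusted p = 0.159), and the remaining one gave -0.35.

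Ifi27 and Ifi35 each had several probe sets that pointed the same way, Ifi27 lower and Ifi35 higher in DBA/2J, none of them past the threshold. Ifi27, a small hydrophobic protein of the ISG12 family, read 14355.7, 13043.4 and 12237.3 in A/J and 8042.7, 10301.6 and 6959.4 in DBA/2J. Its other probe set read 12151.9, 8351 and 10540.8 against 5532.5, 7447.8 and 4904.8. The groups did not overlap at either, and DBA/2J array 2 was the highest of its strain. The log2 differences were -0.66 (SE 0.17, limma adjusted p = 0.086) and -0.80 (SE 0.21, adjusted p = 0.0821). Without DBA/2J array 2 they were -0.82 and -0.97, and both passed. The summed adipocyte markers were also lower in DBA/2J, and highest there on array 2 (40880 against 24927.4 and 25961.4). The same held for skeletal muscle markers (2297.9 against 990.2 and 937.3). Macrophage markers were also highest of DBA/2J on array 2 (38539.2 against 30574.9 and 25756.6), though within the A/J range there. The part of these cells in the Ifi27 values was not tested.

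Ifi35, a leucine zipper protein that pairs with Nmi, read 4676.4, 5724.4 and 5273.7 in A/J and 7961.1, 8609.4 and 6030.4 in DBA/2J. Its 3 probe sets each separated the strains, with log2 differences of 0.52 (SE 0.18, limma adjusted p = 0.20), 0.61 (SE 0.17, adjusted p = 0.0993) and 0.39 (SE 0.18, adjusted p = 0.365). Trim30a, a regulator of innate signalling, had log2 differences of 0.0082 and 0.0032 at its probe sets. Sp100, a nuclear body protein, had 0.46 (95% interval -0.17 to 1.09) and 0.01 at a dimmer probe set.

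The genes around the members were read from lists of ligands, receptors, sensors, inhibitors and further targets. The interferons themselves were dim: of 9 with a probe set only Ifnb1 was kept, at 123.7, 93.6 and 100 in A/J and 118.6, 194.8 and 113.6 in DBA/2J (log2 difference 0.35, limma adjusted p = 0.647). Of 8 kept receptor and kinase genes none passed, and no unadjusted p was under 0.05. The 3 with the smallest p were Ifngr2 (-0.46), Ifngr1 (-0.40) and Ifnar2 (0.06).

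Of 11 kept sensors and adaptors, Mavs and Tlr4 fell and 0 rose. Mavs, the mitochondrial adaptor through which RIG-I and Ifih1 signal, read 1039.7, 947.9 and 1102.6 in A/J and 365.6, 485.6 and 367.9 in DBA/2J. Every DBA/2J array was far below every A/J array, and the log2 difference was -1.32 (SE 0.20, limma adjusted p = 0.00767). A dimmer probe set of Mavs read 740.6, 483.3 and 859.4 against 352, 320.7 and 307.5 (-1.01, adjusted p = 0.06). Without DBA/2J array 1, Mavs did not pass. Tlr4, the receptor for bacterial lipopolysaccharide, read 1261.4, 1184.6 and 985.5 in A/J and 513.3, 652.4 and 596.6 in DBA/2J (-0.94, SE 0.20, adjusted p = 0.0349), while its dimmer kept probe sets gave 0.22 and -0.34. Of the fits that left out a single array, Tlr4 kept its call only in the one without DBA/2J array 2. Macrophages, which carry Tlr4, had a summed marker signal below that of A/J on DBA/2J arrays 1 and 3 and within the A/J range on array 2; their part in the Tlr4 value was not tested.

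**Figure D5:**
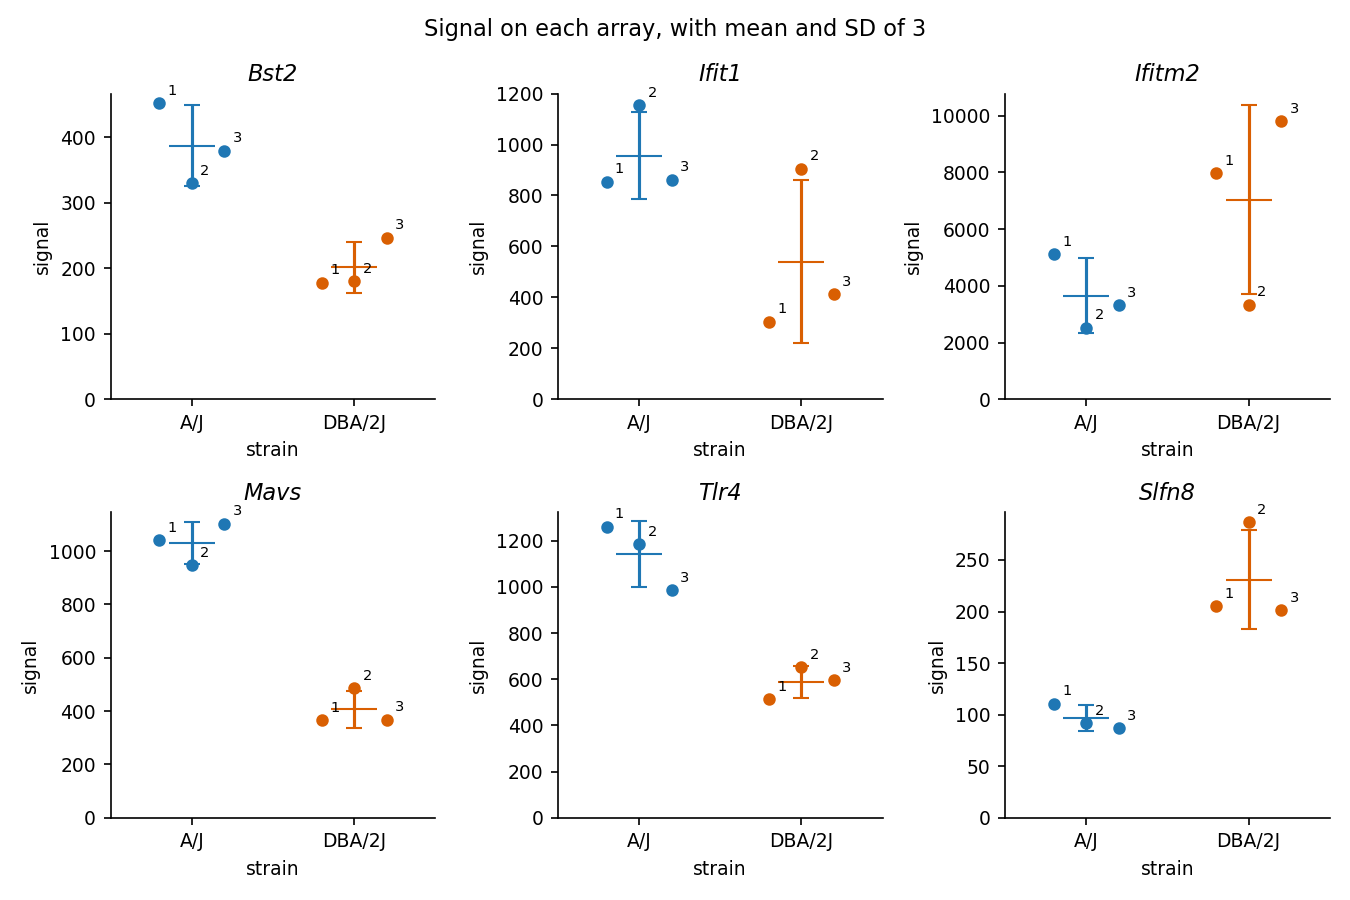
Signal on each array (points, numbered by array) for Bst2, Ifit1 and Ifitm2 among the members and for Mavs, Tlr4 and Slfn8 around them, with the mean and SD of 3 arrays per strain on linear axes from 0. Mavs, Tlr4 and Slfn8 passed the test; for Ifit1 and Ifitm2, DBA/2J array 2 lies within the A/J range.

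Of 14 kept inhibitors none passed, and Socs3, a feedback inhibitor of cytokine receptors, had the smallest p (log2 difference -0.74, limma adjusted p = 0.222), followed by Samhd1 (-0.41) and Ptpn6 (-0.38). The other kept probe sets of Samhd1 gave 1.00 (adjusted p = 0.188), 0.25 and -0.24, so they did not share a sign. Of 43 further interferon-induced genes that were kept, Slfn8 rose and 0 fell. Slfn8, a member of the Schlafen family, read 110.6, 91.8 and 87.2 in A/J and 205, 286.4 and 201.6 in DBA/2J, at a log2 difference of 1.12 (SE 0.24, adjusted p = 0.0424). It lost its call whichever single array was left out. Gbp8, a guanylate-binding protein too dim to keep, read 30.1, 16.6 and 57.5 in A/J and 218.4, 265 and 185.1 in DBA/2J. With no filter on dim probe sets Gbp8 rose by a log2 difference of 2.30 (limma adjusted p = 0.0181), while Slfn8 did not pass in that fit (adjusted p = 0.0929). The median log2 difference of the 43 genes was 0.06, close to the 0.03 of all kept genes. Over these lists 3 of 77 kept genes were called, against 3.77% of all kept genes.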

How the data were processed

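Each of the 6 arrays gives 1 value per probe set. The deposited values are linear intensity signals, scaled by the authors to a common level (the 2%-trimmed mean is 500.0 on every array) with software not given in the sources used here. Labelling used repeated oligo(dT)-primed synthesis, per the labels' protocols. No detection call was used. Gene names come from the platform annotation, brought up to date by gene identifier with RefSeq (GRCm38.p6): 34945 of 45101 name 1 gene, 932 several and 9160 are unlisted; 64 control probe sets were left out. In R 4.3.3 with limma 3.58.1, log2(signal + 16) of the upper 60% of probe sets by mean was fitted on strain (lmFit, eBayes with trend, two-sided), with p adjusted by Benjamini-Hochberg over all of them. The probe set with the highest mean stands for a gene. Brightness is not compared between probe sets as a level of RNA. Members with all 6 values are those past the threshold, with an unadjusted p under 0.05, with separate groups, or among the 5 brightest. Members and lists were chosen with earlier results of these data known. Nothing in the labels says how pools were split, so p-values measure the spread between pools. The fit was also run on simulated data, whose settings and outcome are not given here, so no result rests on that run. Figures were drawn with matplotlib 3.10.9.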

Additional observations from a re-analysis of the deposited data

How the results depend on the processing

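The number of arrays, 3 per strain, and the lack of detection calls limit every value. Of 303 values of 19 named member probe sets over 16 alternatives, 288 kept their direction and their side of the threshold, 13 became calls, 1 lost its call (Xaf1 1443621_at, replicate block) and 1 reversed: Ifitm3 was at 0.10 without A/J arrays 1 and 3, from -0.17. That fit holds a single A/J array, assumed to vary as the DBA/2J arrays do. The count of called member genes, 0 with 8 at an unadjusted p under 0.05, was 6 with array weights, 5 by the series' rule, 1 without A/J arrays 1 and 3 and 1 with probe sets averaged. Leaving out 1 array gave 0 to 4, the 4 (Ifi27, Ifit1, Ifitm2, Xaf1) without DBA/2J array 2. The share of all kept genes called in that fit is not given here, so these calls are not read as particular to the members. Adjusting p over genes only, chosen after seeing the data, gave 0. Called member probe sets, 1, became 9 with array weights, and 1 to 6 without 1 array. Called pathway genes, 3, were 0 without A/J arrays 1 and 3, and 0 to 3 without 1 array. The 883 called probe sets became 3007 with array weights, 2725 by the series' rule, 63 without A/J arrays 1 and 3, and 341 to 1351 without 1 array. The causes were not tested. The members' median of 0.01 ran from -0.16 (without A/J array 2) to 0.044 without 1 array. Some titles share a number across strains. As a fixed replicate block, with 1 residual degree of freedom, it left 0 called member probe sets, 0 pathway genes and 0 of all probe sets (1955 at an unadjusted p under 0.05); as a random replicate block it changed no call of a member. The deviations of arrays that share a number correlated at -0.26 and 0.04, so no pairing was used.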

Other observations

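Isg15, the ubiquitin-like modifier, had no probe set of its own. A probe set annotated to Isg15 and Gm9706 together read 178.9, 232.7 and 171.8 in A/J and 218.6, 120 and 113.3 in DBA/2J, with overlapping groups (log2 difference -0.38, limma adjusted p = 0.625). A probe set shared by Gbp8 and Gbp4 was dim on every array, from 21.8 to 64.1.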
